A study of Mus musculus with 4 samples.

Results

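The genes described here are 10 ligands and receptors of vascular endothelial growth factor (VEGF) and angiopoietin signalling. They were taken by gene symbol from the 22809 genes of the deposited table, and all 10 were found. The 5 ligands were Vegfa, Vegfc, Pgf, Angpt1 and Angpt2, and the 5 receptors were Flt1, Kdr, Nrp1, Tek and Tie1. The rule uses gene names alone, though it was set with earlier results of these data known. Expression was measured by sequencing of poly(A) RNA from glomeruli, the capillary tufts that filter blood in the kidney, isolated fresh from mice of 3 weeks of age. There were 2 libraries labelled HDAC KO, from mice with a podocyte-specific knockout of Hdac1 and Hdac2, and 2 untreated libraries labelled Control (WT). Each library pooled 2 mice, and the series reports 2 independent experiments without saying which libraries belong to which. No source used here gives the strain, the sex or the driver of the deletion. P-values here rest on the spread between these pools, where the spread of each gene is moderated by that of all genes in the fit.

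Expression is given in TPM, a count of reads per length of transcript set to a sum of 1000000 per library, so levels can be compared between genes. Whole reads recovered from the TPM numbered 18207231 and 21923375 in the KO-labelled libraries and 16484320 and 13421560 in the control libraries. The target transcripts were not lower in the KO-labelled libraries. Hdac1 was at 22.9 and 22.5 TPM in the KO-labelled libraries, against 19.3 and 18.6 TPM in the control libraries, and Hdac2 at 23.5 and 20.9 TPM, against 20.2 and 24.1 TPM. The deletion is in podocytes alone, while the libraries also hold RNA of other cell types, so these values cannot show whether it took place. All directions below rest on the labels. The libraries differed in cell type markers. A list of 15 blood endothelial markers summed to 364 and 742 TPM in the KO-labelled libraries and to 378 and 871 TPM in the control libraries. The 14 podocyte markers summed to 404 and 626 TPM, against 643 and 1108 TPM, and the 12 proximal tubule markers to 4078 and 4646 TPM, against 41228 and 7572 TPM. A sum is weighted to the most abundant markers. The geometric means of the proximal tubule markers lay closer together, at 212 and 257 TPM, against 831 and 468 TPM. The 11 immune markers summed to 1774 and 1943 TPM, against 136 and 410 TPM, and all 11 were higher in both KO-labelled libraries. No marker of these 4 lists was at 0 in any library. In bulk RNA, fewer cells of a type cannot be told apart from less RNA per cell.

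VEGF-A is made by podocytes and crosses the filtration barrier to the glomerular endothelium, which carries its receptors, so the pathway links the epithelial and the endothelial side of the filter. KDR (VEGFR2) is the main signalling receptor for VEGF-A, while FLT1 (VEGFR1) binds VEGF-A and placental growth factor tightly, signals weakly and also exists as a soluble form. Angiopoietin 1, made by mural and mesangial cells and podocytes, activates the endothelial receptor TIE2, encoded by Tek, and stabilises vessels. Angiopoietin 2, released by endothelial cells, acts in many settings as an antagonist of TIE2, and TIE1 modulates TIE2. Neuropilin 1 is a coreceptor for VEGF-A and for class 3 semaphorins.

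Across the 4 libraries, Vegfa was the most abundant of the 10 genes, at a mean of 173 TPM, higher than 98.2% of the genes tested. It was followed by Kdr at 74.7 TPM, Nrp1 at 63.9 TPM, Tek at 40.8 TPM, Tie1 at 23.0 TPM and Flt1 at 19.0 TPM. The other ligands were lower: Angpt1 at 9.24 TPM, Angpt2 at 5.89 TPM, Vegfc at 3.58 TPM and Pgf at 0.772 TPM. Vegfa held between 86.6% and 91.9% of the TPM of the 5 ligands in each library. The order of neighbours was the same in all 4 libraries except for Kdr and Nrp1, and for Angpt1 and Angpt2, which kept it in 3 of 4. Over libraries the ranges of neighbours overlapped in each case apart from Vegfc and Pgf. The plot of TPM by gene and library shows these levels.

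**Figure D1:**
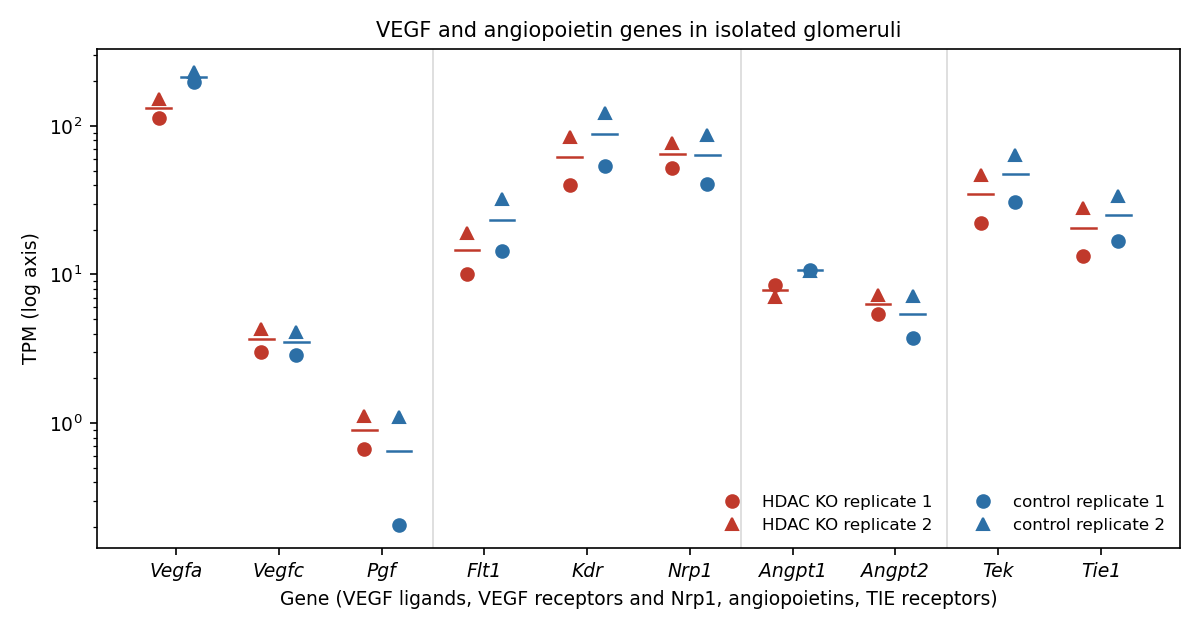
TPM (log axis) of the 10 genes in each library, with the KO-labelled libraries (red) left of the control libraries (blue), circles for replicate 1, triangles for replicate 2 and bars for group means. Both KO-labelled values lay below both control values for Vegfa and Angpt1. Replicate 2 lay above replicate 1 in each group for every gene but Angpt1.

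The promoters of Vegfa and of the endothelial receptors Kdr, Flt1 and Tek are shown because Vegfa had the smallest p of the 10 genes and because the receptors moved together over the libraries. Each is the stretch of 250 bases before the RefSeq start site, 5′ to 3′ on the strand of the gene (RefSeq, GRCm38.p6): Vegfa at chr17:46032378-46032627 (minus strand, the upstream one of 2 start sites), Kdr at chr5:75978456-75978705 (minus), Flt1 at chr5:147726012-147726261 (minus) and Tek at chr4:94739039-94739288 (plus). Capitals mark any match, on either strand, to ACGTG or GCGTG (the core of hypoxia-response elements), to GGGCGG (the GC box of SP1-type factors) or to CAGGAA or CCGGAA (cores bound by ETS factors).
Vegfa: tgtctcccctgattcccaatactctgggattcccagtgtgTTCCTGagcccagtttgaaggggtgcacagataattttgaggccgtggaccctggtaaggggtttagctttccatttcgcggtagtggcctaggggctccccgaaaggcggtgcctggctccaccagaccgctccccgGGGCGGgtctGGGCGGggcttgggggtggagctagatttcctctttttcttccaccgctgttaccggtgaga
Kdr: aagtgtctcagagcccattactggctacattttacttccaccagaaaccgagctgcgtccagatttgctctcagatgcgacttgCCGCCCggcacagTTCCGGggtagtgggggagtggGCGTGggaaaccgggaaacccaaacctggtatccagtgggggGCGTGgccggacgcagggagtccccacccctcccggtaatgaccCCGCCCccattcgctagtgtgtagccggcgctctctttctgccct
Flt1: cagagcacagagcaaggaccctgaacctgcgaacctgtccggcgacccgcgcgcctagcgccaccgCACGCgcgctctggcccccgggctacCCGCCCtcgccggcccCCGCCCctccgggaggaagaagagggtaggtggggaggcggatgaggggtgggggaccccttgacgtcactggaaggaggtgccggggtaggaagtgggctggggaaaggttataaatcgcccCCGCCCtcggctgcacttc
Tek: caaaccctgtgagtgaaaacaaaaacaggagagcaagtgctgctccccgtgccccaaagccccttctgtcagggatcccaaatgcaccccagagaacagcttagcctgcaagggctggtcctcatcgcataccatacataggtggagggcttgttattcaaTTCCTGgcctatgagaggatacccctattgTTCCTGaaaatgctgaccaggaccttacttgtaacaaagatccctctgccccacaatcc
In the Vegfa window there were 2 GC boxes, from 72 to 67 and from 62 to 57 bases before the start, and 1 ETS core but no hypoxia-response core. The window of the other Vegfa start site, not printed, held 2 hypoxia-response cores and 1 GC box. The Kdr window held 2 hypoxia-response cores, 2 GC boxes and 1 ETS core. The Flt1 window held 1 hypoxia-response core and 3 GC boxes, and the Tek window held 2 ETS cores alone. Of all 32817 windows of the same length, 38.6% held a hypoxia-response core, 32.7% a GC box and 35.0% an ETS core, so a match is common. The Tie1 window had 1 ETS core and the Nrp1 window 1 hypoxia-response core and 1 GC box. The promoters of Angpt1 and Angpt2 were not analysed here.

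The comparison of the KO-labelled with the control libraries asks which of these transcripts differ when podocytes carry the deletion. None of the 9 genes tested passed an adjusted p of 0.05 by limma across 18612 genes, where 0.00537% of genes did. Pgf was below the mean of 1 TPM required for the test. At an unadjusted p under 0.05, 1 of the 9 was lower (Vegfa) and 0 were higher, beside 4.46% of all tested genes lower and 13.4% higher. By voom, which models recovered reads, 0 of the 9 passed and 2 were lower at an unadjusted p under 0.05 (Vegfa and Angpt1), beside 5.38% of all genes. Both KO-labelled values lay below both control values for 2 of the 9 and above them for 0, where 14.3% of all tested genes lay below, 36.7% above and 50.9% on either side. The median log2 fold change (KO-labelled over control, of TPM + 1) was -0.41 over the 9 genes and 0.17 over all tested genes.

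Vegfa (ENSMUSG00000023951.18), on the minus strand of chromosome 17 from 46016993 to 46032369 in GRCm38, encodes the main VEGF ligand. It was at 114 and 151 TPM in the KO-labelled libraries, against 198 and 231 TPM in the control libraries. The groups did not overlap, and the highest KO-labelled value was below the lowest control value. The means were 132 ± 26.7 TPM and 214 ± 22.8 TPM (SD, n = 2 each). The log2 fold change was -0.70 (SE 0.21, 95% interval -1.22 to -0.18, adjusted p = 0.182 by limma). The values rested on 3483 and 5424 reads in the KO-labelled libraries and 5685 and 5282 reads in the control libraries, so counting error was small beside the spread between libraries. It was the gene of the 10 with the smallest p. Leaving out any single library kept its sign, with log2 fold changes between -0.91 and -0.50.

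Most podocyte and tubule markers had a negative log2 fold change, as Vegfa did. Of the 14 podocyte markers, 4 were lower in both KO-labelled libraries than in both control libraries, 0 were higher and 10 overlapped. Of all tested genes, 14.3% lay below and 36.7% above without overlap. The median log2 fold change of the podocyte markers was -0.75. Set against the geometric mean of the 14 podocyte markers in the same library, Vegfa was at log2 ratios of 3.48 and 2.84 in the KO-labelled libraries and 3.28 and 2.49 in the control libraries. These ratios overlapped between the groups, and their means differed by 0.28 toward the KO-labelled side, less than the SDs of 0.45 and 0.56. On the same scale 69% of all tested genes lay above the control libraries without overlap and 0.725% below. Tubule cells also express Vegfa. Of the 12 proximal tubule markers, 11 were lower in both KO-labelled libraries and 0 were higher. Of the 8 markers of later tubule segments, 4 were lower and 1 was higher, beside the same shares of all genes. In the control libraries the geometric mean was 831 and 468 TPM for the proximal tubule markers and 20.5 and 41.1 TPM for the podocyte markers. Vegfa was at 198 and 231 TPM in the same libraries. The part of tubular RNA in the Vegfa difference was not tested.

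Vegfc (ENSMUSG00000031520.6), on the plus strand of chromosome 8 from 54077606 to 54187096, encodes a ligand best known from lymphatic growth. It was at 3.02 and 4.30 TPM in the KO-labelled libraries, against 2.87 and 4.12 TPM in the control libraries. The groups overlapped almost fully, and the log2 fold change was 0.05 (SE 0.32, 95% interval -0.74 to 0.85, adjusted p = 0.953 by limma). Only between 47 and 88 reads per library stood behind it. Of the 4 lymphatic endothelial markers in the table, Prox1 alone reached a mean of 1 TPM. It was at 0.932 and 1.21 TPM in the KO-labelled libraries, against 1.14 and 1.34 TPM in the control libraries, and Mmrn1 was at 0 in at least 1 library.

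Pgf (ENSMUSG00000004791.7), on the minus strand of chromosome 12 from 85166635 to 85177790, encodes placental growth factor, a ligand of FLT1. It was at 0.674 and 1.11 TPM in the KO-labelled libraries, from 14 and 27 reads, and at 0.206 and 1.10 TPM in the control libraries, from 4 and 17 reads. The value in control replicate 1 had a 95% exact Poisson interval of 0.0561 to 0.527 TPM and was the lowest of the 4. It overlapped the interval of KO-labelled replicate 1, which was 0.368 to 1.13 TPM. Such intervals cover counting error only. The values overlapped between the groups, and in a fit with no filter the log2 fold change was 0.24 (SE 0.33, limma adjusted p = 0.766).

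The endothelial receptors varied more between libraries of a group than between the groups. Kdr (ENSMUSG00000062960.10), on the minus strand of chromosome 5 from 75932827 to 75978458, was at 39.8 and 83.6 TPM in the KO-labelled libraries, against 53.7 and 122 TPM in the control libraries. Flt1 (ENSMUSG00000029648.13), on the same strand of chromosome 5 from 147561604 to 147726011, was at 10.1 and 19.0 TPM, against 14.4 and 32.4 TPM. Each was lowest in KO-labelled replicate 1 and highest in control replicate 2, and the groups overlapped. The log2 fold change was -0.48 for Kdr (SE 0.50, 95% interval -1.73 to 0.77) and -0.61 for Flt1 (SE 0.46, interval -1.76 to 0.55), with adjusted p = 0.674 and 0.557 by limma. The table counts whole genes, so the soluble and membrane forms of FLT1 are summed.

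Tek (ENSMUSG00000006386.15), on the plus strand of chromosome 4 from 94739289 to 94874976, encodes the angiopoietin receptor TIE2. It was at 22.1 and 46.9 TPM in the KO-labelled libraries, against 30.6 and 63.5 TPM in the control libraries. Tie1 (ENSMUSG00000033191.14), on the minus strand of chromosome 4 from 118471191 to 118490061, was at 13.3 and 28.1 TPM, against 16.9 and 33.7 TPM. Both followed the library order of Kdr and Flt1, with overlapping groups. Their log2 fold changes were -0.44 (SE 0.47, 95% interval -1.63 to 0.75) and -0.29 (SE 0.46, interval -1.44 to 0.86), with adjusted p = 0.686 and 0.797 by limma.

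In replicate 2, Kdr was 2.10 times its level in replicate 1 among the KO-labelled libraries and 2.26 times among the control libraries. The same ratios were 1.87 and 2.25 for Flt1, 2.12 and 2.08 for Tek and 2.12 and 2.00 for Tie1. The summed endothelial markers had ratios of 2.04 and 2.30, so the receptors differed between libraries by about as much as the endothelial markers did. The sign of the group difference turned with the libraries used. Without KO-labelled replicate 1 the log2 fold change was 0.05 for Kdr, 0.09 for Tek and 0.23 for Tie1. Without control replicate 2 it was 0.10, 0.08 and 0.19 for the same genes, and -0.05 for Flt1.

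**Figure D2:**
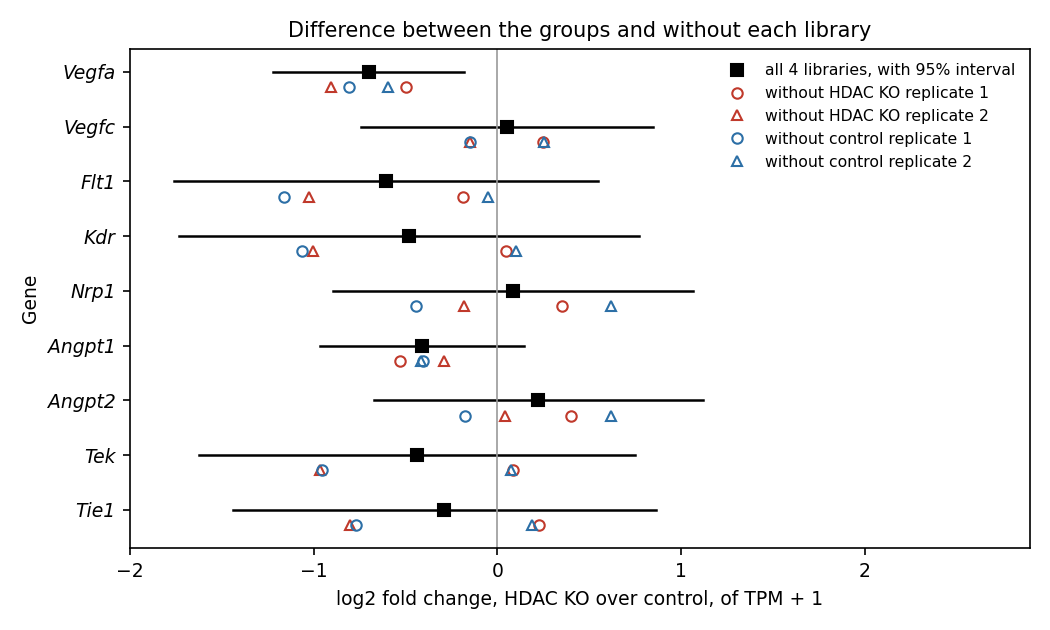
Log2 fold change of the 9 tested genes, KO-labelled over control, with its 95% interval (black) and the value without each library (open symbols). Vegfa, Flt1 and Angpt1 stayed below 0 whichever library was left out, while Kdr, Tek and Tie1 crossed 0 without KO-labelled replicate 1 or control replicate 2.

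Flt1, Kdr, Tek and Tie1 were next set against the endothelial markers of the same library, which left replicates closer to each other than their TPM were. This measure is the log2 ratio of the TPM of a gene to the geometric mean TPM of the 15 blood endothelial markers, none of which is among the 10 genes. Flt1 was at -0.52 and -0.59 in the KO-labelled libraries, against 0.00 and 0.04 in the control libraries. Kdr was at 1.45 and 1.55, against 1.90 and 1.95. The KO-labelled values of each pair lay below the control values by more than the replicates differed.

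Tek was at 0.61 and 0.72 on this relative scale in the KO-labelled libraries, against 1.09 and 1.01 in the control libraries. Tie1 was at -0.13 and -0.02, against 0.23 and 0.10. The KO-labelled mean relative level was 67.1% of the control mean for Flt1, 74.7% for Kdr, 76.6% for Tek and 84.8% for Tie1. All 4 lay below the control libraries without overlap, as did 4.53% of all tested genes on the same scale, while 20% lay above. Of the other genes described here, Vegfa, Vegfc, Nrp1, Angpt1 and Angpt2 overlapped on this scale and Pgf lay above. The 4 receptors moved together, with Tek over Kdr in a 1.09-fold range, so they are not 4 separate results. The 4.53% covers genes of all cell types. Of the 15 endothelial markers, each set against the others, 4 lay below. With 2 libraries a group an exact permutation test of 1 gene cannot go below p = 0.333, two-sided, so none was used. In a limma fit across all genes on TPM scaled in this way, chosen after the data were seen, 0 of the 9 genes passed, beside 2.22% of all genes. None had an unadjusted p under 0.05, beside 1.16% of all genes lower and 6.7% higher. That fit could not resolve these differences and nothing is read from it: its SE was 0.80 for Flt1 and 0.96 for Kdr, against 0.46 and 0.50 without the scaling.

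The markers used as the yardstick did not move as 1 block. Set against the other 14, 4 of the 15 endothelial markers were lower in both KO-labelled libraries than in both control libraries, 4 were higher and 7 overlapped, with differences from -0.91 for Ehd3 to 0.67 for Ecscr. Pecam1 and Cdh5, general endothelial adhesion genes, differed by 0.00 and -0.07. Against Pecam1 alone, Flt1 was at ratios of 0.336 and 0.304 in the KO-labelled libraries and 0.463 and 0.491 in the control libraries. Against Pecam1, Kdr was at ratios of 1.32 and 1.34, against 1.72 and 1.84. Pecam1 and Cdh5 were picked for this after the values were seen, and all 4 receptors were lower without overlap against either of them. For Tie1 over Cdh5 the gap was narrow, at 0.341 and 0.372 in the KO-labelled libraries, against 0.425 and 0.378 in the control libraries. The direction depends on the marker chosen. Ehd3 was at 34.7 and 76.6 TPM in the KO-labelled libraries, against 63.4 and 149 TPM in the control libraries. Kdr thus lay above Ehd3 in both KO-labelled libraries and below it in both control libraries, the reverse of its direction against Pecam1. Ratios to single markers other than Pecam1 and Cdh5 are not given here. Of the 4 lower markers, Ehd3, Cldn5 and Emcn differed from the other 14 by -0.91, -0.67 and -0.55. Relative to all 15 markers, the differences were -0.58 for Flt1 and -0.42 for Kdr.

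Nrp1 (ENSMUSG00000025810.9), on the plus strand of chromosome 8 from 128358604 to 128503363, differed from the other receptors. It was at 52.2 and 76.1 TPM in the KO-labelled libraries, against 40.8 and 86.3 TPM in the control libraries, with the KO-labelled values inside the control range. The log2 fold change was 0.09 (SE 0.39, 95% interval -0.90 to 1.07, adjusted p = 0.936 by limma). Its TPM was 359% and 267% of the geometric mean of the endothelial markers in the KO-labelled libraries, against 283% and 274% in the control libraries, with overlap. The ratio of Nrp1 to Kdr was 1.31 and 0.911 in the KO-labelled libraries and 0.759 and 0.709 in the control libraries. Neuropilin 1 is also made outside the endothelium, by mesenchymal and some immune cells. All 11 immune markers were higher in the KO-labelled libraries, and the part of immune cells in the Nrp1 values was not tested.

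**Figure D3:**
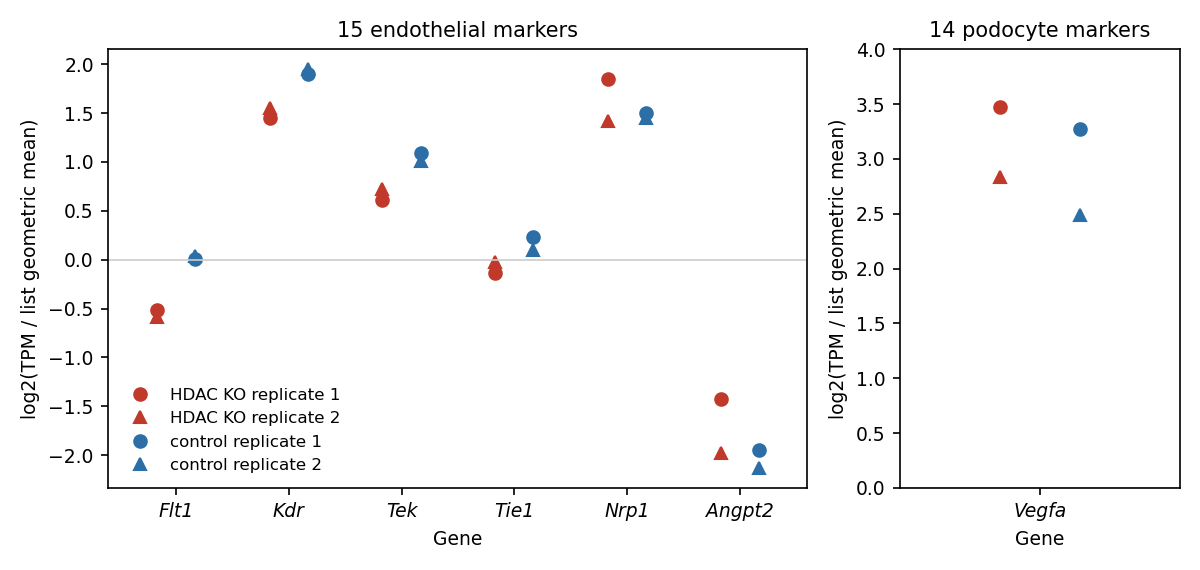
Log2 ratio of each gene to the geometric mean of the endothelial markers (left panel) or, for Vegfa, of the podocyte markers (right panel), with the KO-labelled libraries (red) left of the control libraries (blue). Flt1, Kdr, Tek and Tie1 separated by group, with Flt1 at -0.52 and -0.59 against 0.00 and 0.04, while Nrp1, Angpt2 and Vegfa overlapped.

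Angpt1 (ENSMUSG00000022309.9), on the minus strand of chromosome 15 from 42424723 to 42676977, was at 8.53 and 7.10 TPM in the KO-labelled libraries, against 10.7 and 10.6 TPM in the control libraries. The groups did not overlap, and the control values were nearly equal. The means were 7.82 ± 1.02 TPM and 10.7 ± 0.0531 TPM (SD, n = 2 each). The log2 fold change was -0.41 (SE 0.22, 95% interval -0.97 to 0.15, adjusted p = 0.409 by limma). It kept its sign without each library, between -0.53 and -0.29. Exons of the opposite-strand gene Gm17473 share 14.2% of the exonic bases of Angpt1, and without a stated strand setting their reads cannot be told apart. Angpt1 did not follow the endothelial content of the libraries, since replicate 2 was at 0.832 times replicate 1 in the KO-labelled libraries and 0.993 times in the control libraries. Of 14 mesangial and smooth muscle markers, 3 were higher and 2 lower in both KO-labelled libraries, beside 36.7% and 14.3% of all tested genes. Angpt1 was also set against the geometric mean of these markers. The log2 ratios were -0.79 and -1.53 in the KO-labelled libraries and -0.17 and -0.81 in the control libraries, with overlap.

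Angpt2 (ENSMUSG00000031465.6), on the minus strand of chromosome 8 from 18690263 to 18741562, was at 5.41 and 7.23 TPM in the KO-labelled libraries, against 3.73 and 7.20 TPM in the control libraries. The groups overlapped, with control replicate 1 the lowest of the 4. The log2 fold change was 0.22 (SE 0.36, 95% interval -0.67 to 1.12, adjusted p = 0.800 by limma), and it was -0.17 without control replicate 1. The ratio of Angpt2 to Angpt1 was 0.634 and 1.02 in the KO-labelled libraries and 0.348 and 0.677 in the control libraries, which overlapped. The ratio of Angpt2 to its receptor gene Tek was 0.244 and 0.154 in the KO-labelled libraries and 0.122 and 0.113 in the control libraries, without overlap. Both terms entered that ratio, a Tek value lower in KO-labelled replicate 1 than in any other library among them.

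Ligands and receptors were then set against each other as groups. The 5 ligands had a mean log2(TPM + 1) of 3.10 and 3.36 in the KO-labelled libraries and 3.13 and 3.57 in the control libraries. The 5 receptors had 4.59 and 5.49, against 4.85 and 5.92. The ligand mean minus the receptor mean was -1.48 and -2.13 in the KO-labelled libraries and -1.72 and -2.34 in the control libraries. The group means of this difference were 0.23 apart, less than the SDs of 0.46 and 0.44 between replicates, and the sign turned without KO-labelled replicate 1 (-0.10) or control replicate 2 (-0.09). The level of Vegfa over that of Kdr was 2.85 and 1.81 in the KO-labelled libraries and 3.69 and 1.90 in the control libraries, so it was higher in replicate 1 than in replicate 2 of each group, and the groups overlapped.

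Among Kdr, Flt1, Tek and Tie1, ratios were tighter, while Nrp1 over Kdr, given above, spanned a 1.85-fold range. Tek over Kdr lay between 0.522 and 0.569 in all 4 libraries, a 1.09-fold range, while the level of Kdr itself spanned 39.8 to 122 TPM. Tie1 over Tek was 0.599 and 0.599 in the KO-labelled libraries and 0.552 and 0.530 in the control libraries. Flt1 over Kdr was 0.255 and 0.227, against 0.269 and 0.267. The group differences of the last 2 ratios, 0.15 and -0.16 on the log2 scale, were small beside the shared movement of the genes.

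Genes with the profile most like that of a given member over the 4 libraries were taken among 7910 genes with a mean of at least 10 TPM, by the Euclidean distance between centred log2(TPM + 1) values. For Kdr they were Pi16 (distance 0.081), Dlc1 (0.089), Pcdh12 (0.099) and Emcn (0.102). Pcdh12 and Emcn are endothelial surface genes, and Emcn was at 23.6 and 49.2 TPM in the KO-labelled libraries, against 33.0 and 78.9 TPM in the control libraries. For Vegfa they were Inpp5j (0.049), Snx29 (0.088), Oaz2-ps (0.108) and Rfng (0.118). For Angpt2 they were Mphosph8 (0.042), Smyd2 (0.049), Snhg11 (0.053) and Plpp3 (0.055). With 4 libraries many genes can share a profile, and the distances describe these libraries only.

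The rest of the pathway was read from 8 gene lists with 71 tested genes, of which 0 passed the adjusted threshold by limma or by voom. At an unadjusted p under 0.05, 10 were higher and 2 lower by limma, and 10 and 2 by voom, beside 13.4% and 4.46% of all tested genes by limma and 14% and 5.38% by voom. Those shares are near those of all genes. Of the other VEGF and angiopoietin family genes, 1 of 6 did not overlap between the groups, beside 50.9% of all tested genes. This was Vegfd, a ligand related to VEGF-C, at 1.68 and 2.43 TPM in the KO-labelled libraries, against 4.03 and 3.57 TPM in the control libraries (log2 fold change -0.66, SE 0.30, limma adjusted p = 0.334). Nrp2, the second neuropilin, was at 6.71 and 13.2 TPM, against 3.34 and 9.30 TPM, and Ptprb, the phosphatase VE-PTP that restrains TIE2, at 27.2 and 52.5 TPM, against 31.9 and 73.2 TPM. Ptprb followed the library order of the endothelial receptors.

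Of 8 HIF subunits and oxygen sensors, which control Vegfa transcription in hypoxia, 3 were above and 0 below without overlap, beside 36.7% of all tested genes above and 14.3% below, with a median log2 fold change of 0.21. The share above was near that of all genes. The smallest p of the list was that of Egln2, a prolyl hydroxylase, at 39.1 and 48.2 TPM in the KO-labelled libraries, against 37.5 and 34.4 TPM in the control libraries. Egln1, at 26.5 and 31.9 TPM in the KO-labelled libraries, against 38.3 and 31.8 TPM in the control libraries, and Egln3, at means of 5.33 ± 1.61 TPM and 3.53 ± 1.97 TPM (SD, n = 2 each), overlapped between the groups. Of 10 hypoxia target genes, 5 were below and 1 above, beside 14.3% of all tested genes below and 36.7% above, with a median of -0.14 and 9 negative values. P4ha1, a collagen prolyl hydroxylase, was at 25.3 and 25.7 TPM in the KO-labelled libraries, against 54.4 and 41.1 TPM in the control libraries (log2 fold change -0.87 with an SE of 0.20, limma adjusted p = 0.126). Pgk1, a glycolytic enzyme, was at 126 and 124 TPM, against 170 and 148 TPM, and Car9, a carbonic anhydrase, at 2.79 and 5.19 TPM, against 10.5 and 5.36 TPM. The gap between the groups was narrow for Car9 and for Bnip3, which was at 22.3 and 18.4 TPM, against 22.5 and 22.7 TPM. Proximal tubule markers were lower in the same libraries, and their part in these values was not tested.

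Of 13 tested VEGF receptor signalling genes, 3 were above in both KO-labelled libraries, 0 were below and 10 overlapped, beside 36.7% of all tested genes above and 14.3% below. The 3 were Src at 39.7 and 44.4 TPM in the KO-labelled libraries, against 20.6 and 19.0 TPM in the control libraries, the adaptor Shb at 55.1 and 59.6 TPM, against 30.4 and 32.5 TPM, and Akt1 at 76.7 and 91.5 TPM, against 47.9 and 54.5 TPM. Their log2 fold changes were 1.05 (SE 0.17), 0.85 (SE 0.16) and 0.70 (SE 0.17), with adjusted p = 0.104, 0.107 and 0.141 by limma. All 3 are widely expressed kinases or adaptors, and all 11 immune and all 8 parietal epithelial markers were higher in the same libraries. The parietal markers summed to 874 and 675 TPM in the KO-labelled libraries, against 223 and 264 TPM in the control libraries. Their part in these values was not tested.

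Of 7 tested VEGF-induced endothelial genes, 2 were above and 5 overlapped, beside 36.7% of all tested genes above. Rcan1, a calcineurin inhibitor, was at 79.0 and 87.1 TPM in the KO-labelled libraries, against 35.8 and 45.5 TPM in the control libraries. Nr4a1, an immediate-early nuclear receptor, was at 16.7 and 24.2 TPM, against 5.58 and 10.4 TPM. Both are also induced in other cell types. Dll4, the Notch ligand of VEGF-activated endothelium, was at 6.78 and 11.2 TPM, against 10.9 and 15.6 TPM, with overlap.

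Of 9 tested semaphorins and plexins, partners of the neuropilins, 3 were above and 1 below, near the shares of all tested genes (36.7% and 14.3%). Plxna1 was at 41.6 and 45.8 TPM in the KO-labelled libraries, against 20.4 and 24.5 TPM in the control libraries (log2 fold change 0.93 with an SE of 0.18, limma adjusted p = 0.110). Sema3c was at 57.0 and 46.7 TPM, against 36.0 and 23.7 TPM. Sema3g, made by podocytes and endothelium, was at 16.2 and 41.6 TPM, against 50.1 and 85.1 TPM, and was the 1 gene below.

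Among 7 TIE2 signalling genes, 3 were above and 1 below, beside 36.7% and 14.3% of all tested genes. The adaptor Grb2 was at 45.2 and 46.8 TPM in the KO-labelled libraries, against 30.1 and 32.5 TPM in the control libraries. Tnip2 was at 24.1 and 28.9 TPM, against 7.29 and 17.5 TPM, and Dok2, an adaptor also found in immune cells, at 2.41 and 4.53 TPM, against 1.13 and 1.93 TPM. Of 11 endothelial transcription factors, 1 was above and 1 below, beside the same shares. Klf4 was at 25.8 and 27.1 TPM, against 7.16 and 17.4 TPM, and Gata2 at 25.0 and 17.6 TPM, against 28.1 and 28.9 TPM. Lmo2 was at 13.3 and 16.7 TPM, against 6.56 and 14.7 TPM, with overlap.

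**Figure D4:**
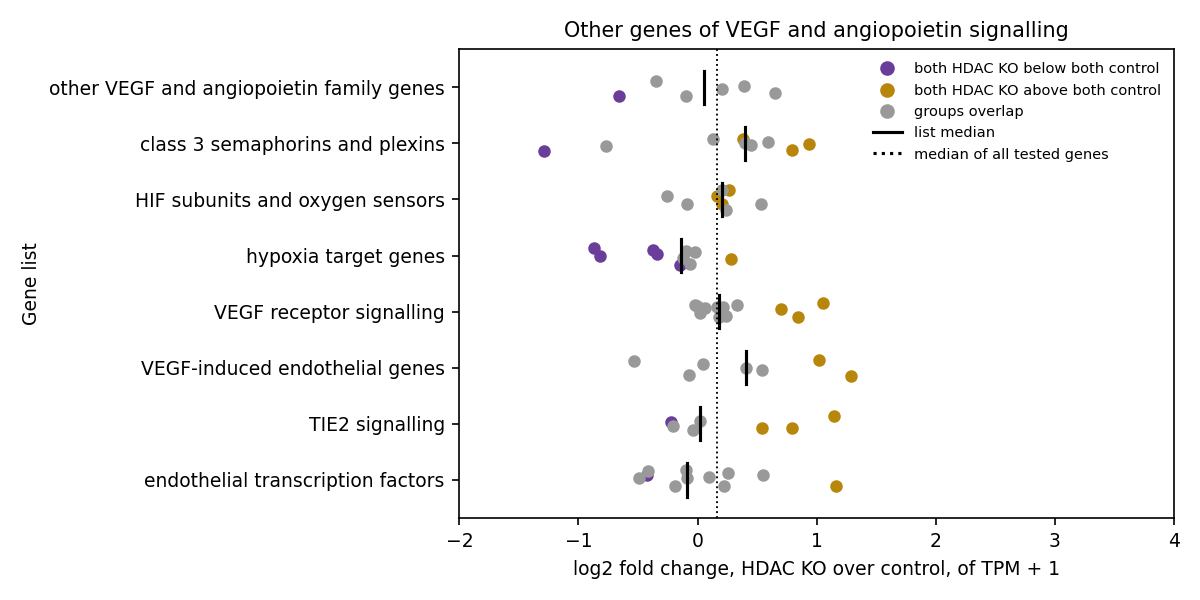
Log2 fold change, KO-labelled over control, of the 71 tested genes in 8 lists, each point a gene coloured by whether its groups overlap, with black bars for list medians and a dotted line for the median of all tested genes (0.17). The hypoxia targets lay mostly to the left of that line. Of these, 5 of 10 were below without overlap, some by narrow gaps, beside 14.3% of all tested genes. None of the genes passed the adjusted threshold.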

How the data were processed

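The data are 4 poly(A) RNA libraries of mouse glomeruli, 2 labelled HDAC KO and 2 labelled control. TPM for 22809 Ensembl genes were deposited by the authors in 1 table, with 4 columns matched to samples by name, each summing to 1000000. Listed in the submitters' processing notes, with no role or order, are GRCm38.p6, featureCounts 2.0.0, STAR 2.7.9, DESeq2 1.30.1 and fastp 0.20. No source used here gives the gene filter, the annotation or whether strand was used.

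TPM times the exon length in GENCODE M21 gave whole multiples of 1 step per library for 22176 genes (tolerance 1e-06). Of 633 genes with another ID version, Vegfa among them, 413 had a whole length that gave whole reads, 4285 bases for Vegfa, and its coordinates are those of the M21 version of the gene.

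Groups were compared with limma 3.58.1 (R 4.3.3; lmFit and eBayes with a mean-variance trend) on log2(TPM + 1) over 4 libraries with no covariate, for 18612 genes with a mean of at least 1 TPM, with Benjamini-Hochberg adjustment over all of them and a threshold of 0.05. Fold changes are KO-labelled over control on that scale, where the pseudocount shrinks differences of low genes. The fit was run on simulated counts without library-wide differences in cell content. That run does not show how the fit performs on these libraries. Named were all 10 members, up to 3 genes per list by smallest p, and the 4 nearest profiles of Vegfa, Kdr and Angpt2. Bnip3 was named for its narrow gap. Members and lists were chosen with earlier results of these data known. Alternatives were other pseudocounts, filters and scalings, voom, no trend, the replicate number as a block, and each library left out, where a lone library is assumed to vary like the other group. Ratios to marker lists were added after the data were seen. Python 3.11.15, numpy 2.4.6, pandas 2.3.3, scipy 1.17.1 and matplotlib 3.10.9 were used.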

Additional observations from a re-analysis of the deposited data

How the results depend on the processing

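No member passed the adjusted threshold under any of the up to 16 settings run for it, so each call stayed on its side. Vegfa, Flt1 and Angpt1 kept a negative log2 fold change under all of them, between -0.94 and -0.50 for Vegfa, with an adjusted p between 0.125 and 0.813 apart from the fit scaled to the endothelial list. Sign turned for the other 6 tested genes under at least 1 setting. Vegfc was at -0.13 with median-ratio scaling, -0.20 with quantile normalization, -0.023 without mitochondrial genes, -0.067 without those and the proximal tubule list, and between -0.15 and 0.25 without each library. Nrp1 was at -0.15, -0.024, -0.0037 and -0.054 under the same 4 scalings, and between -0.45 and 0.62 without each library. Angpt2 was at -0.019 with quantile normalization and between -0.17 and 0.62 without each library. Without each library in turn, Kdr ranged from -1.06 to 0.10, Tek from -0.96 to 0.087, Tie1 from -0.80 to 0.23, and the ligand minus receptor difference from -0.10 to 0.55. Filter, trend, block and voom do not enter that difference and were not run for it.

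Over all genes, the count of lower calls was 0 with quantile normalization, without trend and with voom, and between 0 and 522 without each library, and that of higher calls between 0 and 1558. Scaled to the endothelial list there were 361 higher and 53 lower. Median-ratio scaling moved the median of all genes by -0.20. Unadjusted, 2497 genes were higher and 831 lower as reported. Under median-ratio scaling these counts were 1775 and 1338, and under quantile normalization 2080 and 1657.

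With the replicate number as a block, the adjusted p was 0.127 for Vegfa, 0.178 for Flt1, 0.201 for Kdr and 0.232 for Tek, and no call changed. Unadjusted, these 4 of the 9 genes had a p under 0.05 with the block, against 1 of 9 as reported. Over all 18612 genes, 990 were lower and 2942 higher at that p with the block, against 831 and 2497 as reported. The numbers are not stated to pair the libraries, and deviations of same-numbered libraries from their group means had a correlation of 0.14 across 18612 genes. Without each library the group difference ranged from -0.12 to 0.67 for Vegfa relative to the podocyte list and from -0.059 to 0.37 for Nrp1 relative to the endothelial list, and the Nrp1 difference was -0.036 with the list median. With the list median the differences were -0.77 for Flt1, -0.61 for Kdr, -0.58 for Tek and -0.43 for Tie1. The cause of these changes was not tested. Depth limits Pgf and Vegfc most.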
